A study of Mus musculus with 6 samples.

Results

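The genes described here are the voltage-gated and potassium ion channel genes of the mouse, taken from the deposited expression table by their symbols: all Kcn genes with a family letter and number, all Scn genes with a number, and the Cacn genes of the alpha, beta and gamma series. The rule found 118 of the 18051 genes in the table, namely 84 potassium channel symbols, 12 sodium channel symbols and 22 calcium channel symbols. The samples were 3 RNA-seq libraries labelled Cas9 knockout S100A8, delivered by lentivirus (S100a8 knockout), and 3 labelled Vector control, so the comparison asks how channel expression differs when this calcium-binding protein gene is targeted. The labels name the cells as hematopoietic stem cells and give no strain, age or compound. Under the CRISPR vectors, the study's methods describe lentiviral infection of both such cells and mouse embryonic fibroblasts, with puromycin selection. The study reports CRISPR mutation of this gene in the fibroblasts only. The RNA-seq of mutated cells is described there for the fibroblasts, after addition of glycyrrhizic acid, and no label tells whether any library here received it. Whether the knockout is 1 clone or a pool is not stated, nor whether libraries of a group came from separate cultures, so p-values cover the spread among these libraries alone and part of that may be technical.

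Voltage-gated channels open when the membrane is depolarised, and they are built around pore-forming alpha subunits joined by auxiliary subunits that set their traffic and gating. Potassium channels carry outward current and hold or restore the negative resting potential, sodium channels start action potentials in nerve and muscle, and calcium channels turn a voltage signal into calcium entry. Outside excitable tissue, the same potential drives calcium entry into blood cells and fibroblasts, where calcium-activated and inwardly rectifying potassium channels and tandem-pore leak channels are known contributors.

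S100a8, the targeted gene, was listed at 0 in each knockout library, against 3.67, 1.61 and 3.95 FPKM in control libraries, where FPKM is fragments scaled by transcript length and by the mapped fragments of the library. Its limma adjusted p was 0.000198, while permuting the libraries exactly (two-sided) gave p = 0.1, which no design of 3 against 3 can go below. FPKM summed to 467255 to 538504 in knockout and 485922 to 500518 in control libraries, and knockout replicate 2, with the highest sum, correlated with the other knockout libraries at r = 0.9938 and 0.9953 across genes, against 0.9987 between those. The labelled cell type was not borne out by its markers: Ptprc and Kit were listed at 0 in all 6 libraries, and the 8 genes of the blood and stem cell list in the table summed to 120 to 147 FPKM in knockout and 405 to 424 FPKM in control libraries, nearly all of it from Ly6a and Cd34. The 10 fibroblast genes summed to 5416 to 6523 FPKM in knockout and 4454 to 4591 FPKM in control libraries, nearly all of it from Vim, S100a4, Col1a1 and Col1a2. Of their 9 tested genes, 6 rose, 2 did not pass and 1 fell. The fall was in Dcn (decorin), by 3.57 on the log2 scale (4.73 ± 0.329 FPKM in knockout and 67.2 ± 3.15 FPKM in control libraries, SD, n = 3 each, limma adjusted p = 1.35e-08). Thy1 averaged 3.89 FPKM in knockout and was listed at 0 in control libraries, and Lum averaged 0.0467 and 0.03 FPKM. The 6 smooth muscle and myofibroblast genes summed to 1712 to 1957 FPKM in knockout and 742 to 795 FPKM in control libraries, with 4 of 4 tested genes higher in the knockout, while Des, under the filter, averaged 0.0933 FPKM in knockout and 1.10 FPKM in control libraries. Of the 10 neuron markers, Map2 alone was tested and rose (12.7 ± 1.71 FPKM in knockout and 2.51 ± 0.106 FPKM in control libraries, SD, n = 3 each), while the other 9 averaged below 1 FPKM, with Rbfox3 and Snap25 at no more than 0.03 FPKM on average in either group. The 6 glia markers summed to 2.92 to 3.17 FPKM in knockout and 0.94 to 1.25 FPKM in control libraries, with Mbp higher in the knockout and Sox10 at 0, and the 8 skeletal and heart muscle markers to 0.13 to 0.27 FPKM in knockout and 0.95 to 1.75 FPKM in control libraries, with Ttn at 0. The endothelial and epithelial lists summed to less than 1 FPKM in each library. In bulk RNA, fewer cells of a type and less RNA per cell cannot be told apart, and the part of these markers in the channel results was not tested.

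Most channel genes were silent or nearly so. Only 19 of the 118 (16.1%) had a mean of at least 1 FPKM over the 6 libraries and were tested, against 61.6% of all genes, while 88 lay lower and 11 were listed at 0 throughout. The summed level of the 118 genes was 153 to 169 FPKM in knockout and 148 FPKM in each of the control libraries. Auxiliary subunits made up most of it, 78.8 to 82.6% in knockout and 77.6 to 79.1% in control libraries, although they were only 31 of the 118 genes. A few genes carried that share rather than the class as a whole, and only 9 of the 31 were tested. Much of it lay in Cacnb3 (41.7 to 48.2 FPKM in knockout and 44.3 to 46.1 FPKM in control libraries) and Cacng7 (25.2 to 29.3 and 31.7 to 32.5 FPKM). The pore-forming sum was 29.5 to 34.4 FPKM in knockout and 30.9 to 33.0 FPKM in control libraries, so the groups overlapped there. Within it, potassium pores summed to 16.8 to 17.9 FPKM in knockout and 21.8 to 22.8 FPKM in control libraries, whereas calcium pores summed to 12.1 to 15.7 against 8.54 to 9.94 FPKM, neither of them overlapping.

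Of the 19 tested channel genes, 5 rose, 9 fell and 5 did not pass at a limma adjusted p of 0.05 on the log2(FPKM + 1) scale. That is 73.7%, against 50.2% of all 11112 tested genes, of which 23.6% were higher and 26.7% lower in the knockout. The libraries of the 2 groups did not overlap for 15 of the 19, against 60.7% of all tested genes. A total of 5 of the 19 passed with a log2 difference of more than 1 either way (26.3%), as did 8.1% of tested genes. Because 4 of the tested genes (Kcnab2, Kcnj2, Kcnj15 and Kcnn4) had knockout means under 1 FPKM and passed the filter through the control libraries alone, the count was also taken over the 13 members with every library at 1 FPKM or more, of which 9 passed, against 48.2% of such genes. The median difference of the 19 was -0.03, close to the -0.02 of all tested genes, and their median size of difference was 0.56, against 0.24.

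**Figure D1:**
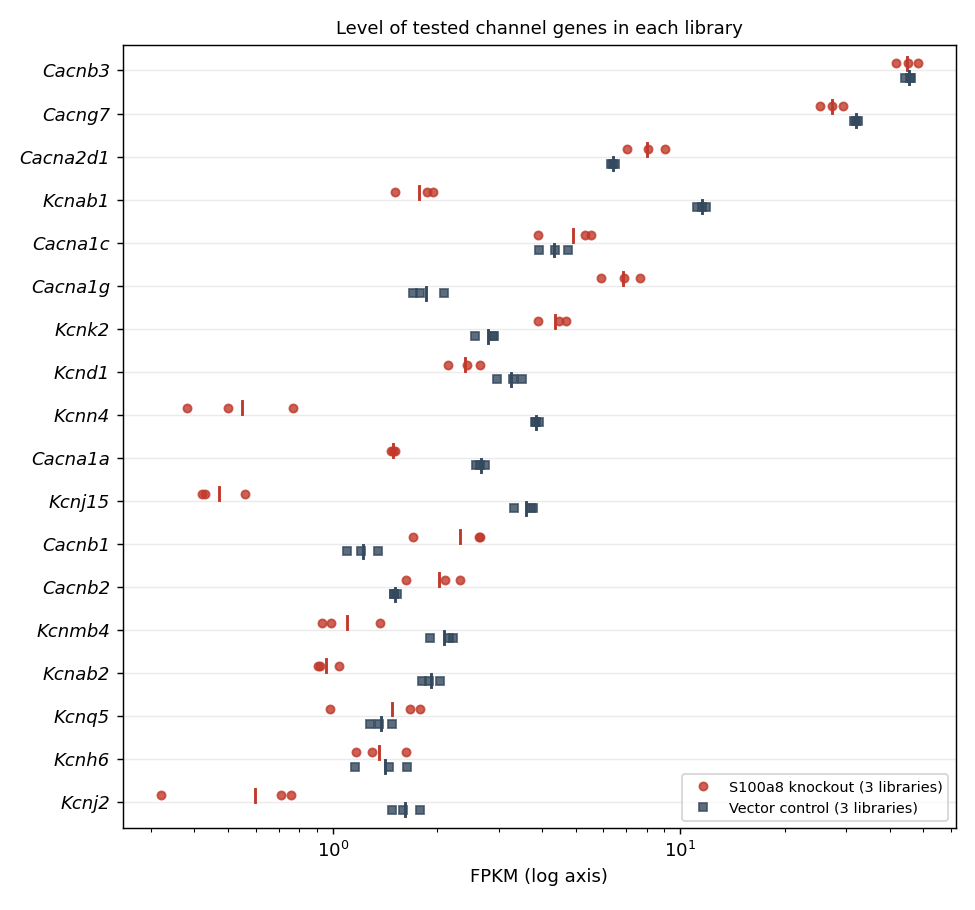
FPKM of tested channel genes on a log axis, one row per gene, with a point for each S100a8 knockout library (red circles) and Vector control library (dark squares) and a bar at each group mean. Cacnb3 sits near 45 FPKM in both groups, Cacna1g lies at 5.93 to 7.68 FPKM in knockout and 1.70 to 2.09 FPKM in control libraries, and Kcnab1, Kcnn4 and Kcnj15 lie far lower in knockout libraries.

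Of the 84 potassium channel symbols 10 were tested, with 1 rise, 7 falls and 2 that did not pass. Among the falls, Kcnab2, Kcnj2, Kcnj15 and Kcnn4 passed the filter through the control libraries alone. The count of falls therefore cannot show a lean of the class. Over all tested genes 23.6% were higher and 26.7% lower. The summed level of the 84 was 22.3 to 23.1 FPKM in knockout and 38.9 to 39.3 FPKM in control libraries, a gap that lay mostly in Kcnab1, Kcnn4 and Kcnj15. Among the 84, tested or not, knockout libraries lay above the control libraries in 13 and below them in 9, against 4029 and 4437 of all 18051 genes. On the log2(FPKM + 1) scale the steepest fall was in Kcnab1, a cytosolic beta subunit that binds voltage-gated potassium channels and can speed their inactivation. It was read at 1.94, 1.51 and 1.87 FPKM in knockout libraries, against 11.6, 11.8 and 11.1 FPKM in control libraries. The groups lay far apart, the knockout mean being 15.4% of the control mean (those of Kcnj15 and Kcnn4 stood at 13.0% and 14.3%), and Kcnab1 fell by 2.18 on the log2 scale (95% interval -2.37 to -1.99, adjusted p = 3.8e-07). It was the eleventh most abundant member in knockout libraries and the third in control libraries. Kcnab1 lies on chromosome 3 at 64949212 to 65378225 of GRCm38. Its relative Kcnab2, also a cytosolic beta subunit, was read at 0.91, 1.04 and 0.92 FPKM in knockout libraries, against 1.89, 2.04 and 1.81 FPKM in control libraries. Kcnab2 fell by 0.57 (adjusted p = 0.000394), without overlap. Kcnab3, the remaining member of this group, lay below the filter and pointed the other way, at 0.38, 0.45 and 0.30 FPKM in knockout libraries, against 0.18, 0.18 and 0.24 FPKM in control libraries.

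Kcnn4 encodes the intermediate-conductance calcium-activated potassium channel, which sets the membrane potential of lymphocytes, red cells and proliferating fibroblasts. It was read at 0.50, 0.77 and 0.38 FPKM in knockout libraries, against 3.81, 3.91 and 3.84 FPKM in control libraries. The knockout mean was 14.3% of the control mean, and Kcnn4 fell by 1.65 (95% interval -1.89 to -1.42, adjusted p = 5.59e-06). The gene lies on chromosome 7 at 24369826 to 24385212 of GRCm38. Kcnmb4, a beta subunit of the large-conductance calcium-activated channel, was read at 0.99, 1.37 and 0.93 FPKM in knockout libraries, against 2.16, 1.90 and 2.22 FPKM in control libraries. Kcnmb4 fell by 0.57 (adjusted p = 0.0021), although Kcnma1, the pore that this subunit joins, was barely read at all, at 0.05 to 0.07 FPKM in knockout and 0.01 to 0.02 FPKM in control libraries. Kcnn2, a small-conductance calcium-activated channel, was read at 0.43, 0.37 and 0.43 FPKM in knockout libraries and was listed at 0 in the 3 control libraries. Kcnn1 of the same subfamily was at 0.27, 0.33 and 0.25 FPKM in knockout libraries, against 0.09, 0.20 and 0.14 FPKM in control libraries. Kcnn1 and Kcnn2 thus lay higher in every knockout library while Kcnn4 lay lower, all at levels under 1 FPKM in the knockout, and Kcnn3 did not exceed 0.02 FPKM.

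The inward rectifiers (Kcnj) pass potassium more readily into the cell than out of it. They had 15 members in the table and 2 above the filter, Kcnj15 and Kcnj2, both lower in the knockout. Both passed the filter through the control libraries alone, so their shared direction cannot speak for the family. Kcnj15 was read at 0.42, 0.43 and 0.56 FPKM in knockout libraries, against 3.71, 3.33 and 3.78 FPKM in control libraries. It fell by 1.65 (95% interval -1.83 to -1.46, adjusted p = 1.43e-06) to 13.0% of the control mean, and lies on chromosome 16 at 95257558 to 95300260 of GRCm38. Kcnj2, the classical inward rectifier of heart and skeletal muscle, was read at 0.71, 0.32 and 0.76 FPKM in knockout libraries, against 1.78, 1.48 and 1.59 FPKM in control libraries. Kcnj2 fell by 0.72 (adjusted p = 0.00165), and knockout replicate 2 was the lowest library. Kcnj4, a close relative of Kcnj2, ran the other way: 1.21, 1.57 and 1.19 FPKM in knockout libraries, against 0.55, 0.67 and 0.55 FPKM in control libraries. Its mean over the 6 libraries was 0.957 FPKM, just under the filter, so it was not tested in the main comparison, and with no filter on low values its difference was 0.54 (limma adjusted p = 0.00205). No other inward rectifier exceeded 0.16 FPKM in any library.

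Promoter windows were read for the members that passed the test with a difference above 0.5 in size and have 1 listed start in RefSeq (GRCm38.p6), which were Kcnn4, Kcnj15, Kcnj2 and Kcnmb4, all lower in the knockout. They are shown so that the starts of these genes can be set side by side, and whether the genes share any regulation was not tested. Kcnn4, Kcnj15 and Kcnj2 passed the filter through the control libraries alone. Each window runs from 250 bases before to 50 bases after the listed start, on the gene's own strand. The listed start is the outer end of the annotated gene for Kcnj15 and Kcnj2, but lies 437 bases inside it for Kcnn4 and 336 bases inside it for Kcnmb4, so those windows do not cover the outermost start. Capitals mark matches, on either strand, to a TATA box (TATAAA), a GC box (GGGCGG), an AP-1 site (TGANTCA), a hypoxia response core (ACGTG) or the interferon-stimulated response core. The motifs overlap only where the hypoxia core reads on both strands.
Kcnn4, chr7:24370013-24370312, forward strand: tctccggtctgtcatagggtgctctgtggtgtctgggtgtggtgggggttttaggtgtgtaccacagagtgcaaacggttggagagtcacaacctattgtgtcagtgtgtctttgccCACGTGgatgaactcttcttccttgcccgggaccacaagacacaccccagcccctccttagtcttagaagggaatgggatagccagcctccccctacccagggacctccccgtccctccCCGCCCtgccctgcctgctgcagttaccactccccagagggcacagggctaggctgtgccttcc
Kcnj15, chr16:95257308-95257607, forward strand: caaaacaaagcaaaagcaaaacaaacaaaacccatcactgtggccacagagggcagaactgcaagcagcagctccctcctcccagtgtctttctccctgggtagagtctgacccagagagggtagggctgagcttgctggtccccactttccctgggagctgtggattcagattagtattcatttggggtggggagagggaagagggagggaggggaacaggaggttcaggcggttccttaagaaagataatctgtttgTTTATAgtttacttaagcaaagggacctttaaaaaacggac
Kcnj2, chr11:111065914-111066213, forward strand: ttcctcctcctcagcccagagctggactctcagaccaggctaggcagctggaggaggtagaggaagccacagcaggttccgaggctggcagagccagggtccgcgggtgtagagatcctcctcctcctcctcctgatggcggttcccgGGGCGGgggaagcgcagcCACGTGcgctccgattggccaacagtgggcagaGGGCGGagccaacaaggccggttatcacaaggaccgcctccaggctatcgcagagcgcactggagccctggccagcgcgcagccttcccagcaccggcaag
Kcnmb4, chr10:116473474-116473773, reverse strand: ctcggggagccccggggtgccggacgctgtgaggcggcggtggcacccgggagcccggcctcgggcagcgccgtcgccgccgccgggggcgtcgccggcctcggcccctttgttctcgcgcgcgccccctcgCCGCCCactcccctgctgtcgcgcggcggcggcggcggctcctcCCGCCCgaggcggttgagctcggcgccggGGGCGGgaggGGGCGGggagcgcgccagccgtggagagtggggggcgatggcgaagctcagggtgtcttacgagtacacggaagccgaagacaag
The 4 starts had little in common in these letters. Kcnmb4 and Kcnj2 lay in windows of 79.0% and 66.7% G and C with 48 and 18 CpG pairs, Kcnn4 in one of 59.7% with 6, and Kcnj15 in one of 49.7% with 2, against medians of 52.7% and 7 over all 32851 windows. A GC box was found in Kcnn4, Kcnj2 and Kcnmb4 and in 35.7% of all windows, the hypoxia core in Kcnn4 and Kcnj2 and in 19.6% of all windows, and the TATA box only in Kcnj15 of these 4, downstream of the listed start, and in 13.6% of all windows. Neither the AP-1 letters (7.81% of all windows) nor the interferon core (3.44%) occurred in any of the 4. Windows were listed for 87 of the 118 members and 15 of the 19 tested members.

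Among the 36 voltage-gated potassium alpha subunits (Kcna to Kcnd, Kcnf to Kcnh, Kcnq, Kcns and Kcnv), only Kcnd1, Kcnq5 and Kcnh6 reached the filter. Kcnd1, a subunit of the rapidly inactivating A-type channels, was read at 2.14, 2.43 and 2.66 FPKM in knockout libraries, against 3.51, 2.97 and 3.30 FPKM in control libraries. It was lower by this test (difference -0.32, adjusted p = 0.017), without overlap. The call was lost without control replicate 1 or 3 (adjusted p = 0.0721 and 0.0607), and Kcnd1 lies on the X chromosome, whose 371 tested genes had a median difference of -0.36. Once the genes of each chromosome were centred, the Kcnd1 difference was 0.03 (adjusted p = 0.83). Kcnq5, a subunit of the slow M-type current, averaged 1.48 ± 0.434 FPKM in knockout and 1.37 ± 0.101 FPKM in control libraries (SD, n = 3 each), a difference of 0.05 with a 95% interval of -0.26 to 0.35. Kcnh6 of the ether-a-go-go-related group averaged 1.36 ± 0.232 and 1.42 ± 0.242 FPKM in knockout and control libraries (SD, n = 3 each), a difference of -0.03 with an interval of -0.28 to 0.21. Of the remaining 33, 5 were listed at 0 throughout, and the most abundant was the silent modifier Kcnf1, at 0.48 to 0.74 FPKM in knockout and 0.56 to 0.90 FPKM in control libraries.

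Of the 12 tandem-pore leak channels (Kcnk), only Kcnk2 reached the filter. Kcnk2, which responds to membrane stretch and lipids, was read at 3.90, 4.47 and 4.68 FPKM in knockout libraries, against 2.89, 2.57 and 2.92 FPKM in control libraries. It rose by 0.49 (95% interval 0.30 to 0.69, adjusted p = 0.00184) and was the only tested potassium channel gene that did. Kcnk3, an acid-sensitive leak channel, sat just under the filter and overlapped, at 0.81 to 1.14 FPKM in knockout and 0.96 to 1.06 FPKM in control libraries. Kcnk5 was read at 0.25 to 0.38, Kcnk1 at 0.06 to 0.32 and Kcnk13 at 0.07 to 0.15 FPKM in knockout libraries, and all of them were listed at 0 in the 3 control libraries.

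None of the 8 pore-forming sodium channel genes reached the filter. Scn2a, a pore of brain sodium channels, was the highest of them at 0.64, 0.51 and 0.72 FPKM in knockout libraries, against 0.60, 0.53 and 0.55 FPKM in control libraries. The groups overlapped, and no other sodium channel pore exceeded 0.04 FPKM. The sodium channel beta subunits are membrane proteins that modulate gating. Among them, Scn3b was read at 0.16, 0.11 and 0.26 FPKM in knockout libraries, against 0.06, 0.06 and 0.09 FPKM in control libraries, which did not overlap, while Scn2b and Scn4b overlapped.

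Calcium channel genes were the most abundant of the 3 classes, at 97.0 to 103.8 FPKM in knockout and 96.4 to 97.7 FPKM in control libraries in sum, and of 8 tested 3 rose, 2 fell and 3 did not pass. Cacna1g, the pore of a low-voltage-activated T-type channel, was read at 6.87, 5.93 and 7.68 FPKM in knockout libraries, against 2.09, 1.78 and 1.70 FPKM in control libraries. The means differed 3.68-fold, and Cacna1g rose by 1.45 (95% interval 1.21 to 1.69, adjusted p = 1.36e-05). It is on chromosome 11 at 94408391 to 94474400 of GRCm38. The other T-type pores were scarcely read, with Cacna1h at 0.04 to 0.07 FPKM in knockout and 0.03 to 0.05 FPKM in control libraries, and Cacna1i at 0 to 0.02 against 0.03 to 0.08 FPKM. Cacna1a, the pore of the P/Q-type channel of nerve terminals, moved the opposite way to Cacna1g. It was read at 1.47, 1.49 and 1.51 FPKM in knockout libraries, against 2.75, 2.58 and 2.66 FPKM in control libraries, and fell by 0.56 (adjusted p = 0.000277).

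Of the L-type pores, Cacna1c, the main one of heart and smooth muscle, was read at 5.33, 3.90 and 5.55 FPKM in knockout libraries, against 4.75, 3.92 and 4.36 FPKM in control libraries. The groups overlapped, with a difference of 0.14 (95% interval -0.14 to 0.43, adjusted p = 0.375). Knockout replicate 2 was the low library, and without it the difference was 0.27 (adjusted p = 0.00855). Cacna1d, the other L-type pore with a reading, was at 0.91, 0.60 and 0.80 FPKM in knockout libraries, against 0.04, 0.02 and 0.02 FPKM in control libraries. It lay under the filter, and with no filter on low values its difference was 0.78 (limma adjusted p = 0.000187). It lies on chromosome 14, whose 368 tested genes had a median difference of 0.41. Cacna1c was therefore the main L-type pore in both groups, although Cacna1d was far closer to it in the knockout.

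The calcium channel beta subunits bind the pore from the cytosol and bring it to the surface. Cacnb3 was the most abundant of all members, at 41.7, 48.2 and 45.2 FPKM in knockout libraries, against 44.3, 46.1 and 45.8 FPKM in control libraries. The groups overlapped, and the difference was -0.01 with a 95% interval of -0.17 to 0.14. Cacnb1, known as the beta subunit of skeletal muscle, was read at 1.70, 2.65 and 2.64 FPKM in knockout libraries, against 1.10, 1.35 and 1.21 FPKM in control libraries, and rose by 0.57 (adjusted p = 0.00676). Cacnb2, the main one of heart, was at 2.11, 1.63 and 2.32 FPKM in knockout libraries, against 1.5, 1.53 and 1.5 FPKM in control libraries. These did not overlap, yet the difference of 0.26 missed the threshold (adjusted p = 0.0562), and it passed without knockout replicate 2 (0.36, adjusted p = 0.00185). Cacna2d1, the extracellular alpha2delta subunit that binds gabapentin, was read at 9.01, 7.01 and 8.07 FPKM in knockout libraries, against 6.47, 6.42 and 6.31 FPKM in control libraries. It rose by 0.28 (adjusted p = 0.032), a call lost when any library but knockout replicate 2 was left out (adjusted p 0.0808 to 0.099) and on centring by chromosome (adjusted p = 0.0755).

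The gamma subunits Cacng7 and Cacng8 are known from brain, where they also regulate AMPA-type glutamate receptors. Cacng7 was abundant too, at 27.3, 25.2 and 29.3 FPKM in knockout libraries, against 31.7, 32.5 and 32.0 FPKM in control libraries. The difference was -0.23 (adjusted p = 0.0222) without overlap, but the call was lost without any 1 control library (adjusted p = 0.065, 0.0827 and 0.0759 without replicates 1, 2 and 3). It also lay near the median difference of its chromosome 7, -0.25, and after centring by chromosome it was 0.01 (adjusted p = 0.922). Cacng8, from the same chromosome, was read at 0.34, 0.45 and 0.22 FPKM in knockout libraries, against 1.29, 1.21 and 0.82 FPKM in control libraries, and lay under the filter. With no filter on low values its difference was -0.65 (limma adjusted p = 0.00349), a larger gap than that of Cacng7.

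**Figure D2:**
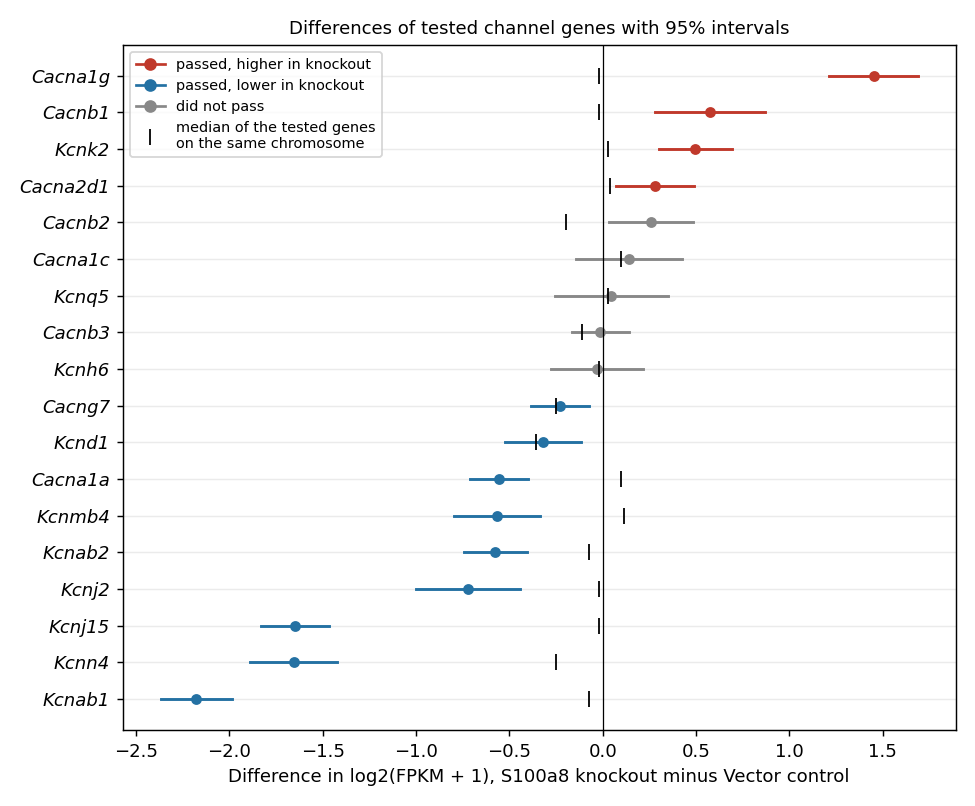
Difference in log2(FPKM + 1), S100a8 knockout minus Vector control, for tested channel genes with 95% intervals from limma, coloured by call (red, passed and higher; blue, passed and lower; grey, did not pass). Black ticks give the median difference of the tested genes on the same chromosome: the differences of Kcnd1 (-0.32) and Cacng7 (-0.23) sit at the ticks of X and 7, whereas Cacna1g (1.45) and Kcnn4 (-1.65) lie far from theirs.

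Most channel genes were read only at trace level, and some of these also lay apart between the groups. Of the 88 members under the filter with a reading in at least 1 library, 57 never exceeded 0.1 FPKM. The groups did not overlap for 20 of the 88 (22.7%), against 27.1% of all genes under the filter with a reading. In 15 the knockout libraries were above the control libraries (17.0%, against 13.1% of such genes) and in 5 they were below (5.68%, against 14%). For 5 members (Kcnn2, Kcnk5, Kcnk1, Kcnk13 and Cacna2d3) every knockout library was above 0 and every control library was listed at 0, which held for 2.19% of such genes. Kcnc2, the pore of a fast delayed rectifier, was read at 0.21, 0.28 and 0.27 FPKM in knockout libraries, against 0.03, 0.01 and 0.02 FPKM in control libraries. Kcna4, an A-type pore, was at 0 to 0.03 FPKM in knockout and 0.10 to 0.14 FPKM in control libraries. With no filter on low values, 14 of the 88 passed (15.9%, against 21.9% of all genes under the filter with a reading). Of the 88, 12 passed higher and 2 (Cacng8 and Kcna4) lower in the knockout, against 10.5% higher and 11.4% lower of all such genes. Of the 15 that lay above, 4 (Cacna1d, Cacna2d3, Kcnk5 and Kcnma1) are on chromosome 14 and Kcnn2 is on chromosome 18, where the median differences of the tested genes were 0.41 and 0.37; the part of these chromosome shifts in the single genes was not tested. The files give FPKM to 2 decimals with no counts, so no detection limit could be set, and a listed 0 may be a failed estimate.

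**Figure D3:**
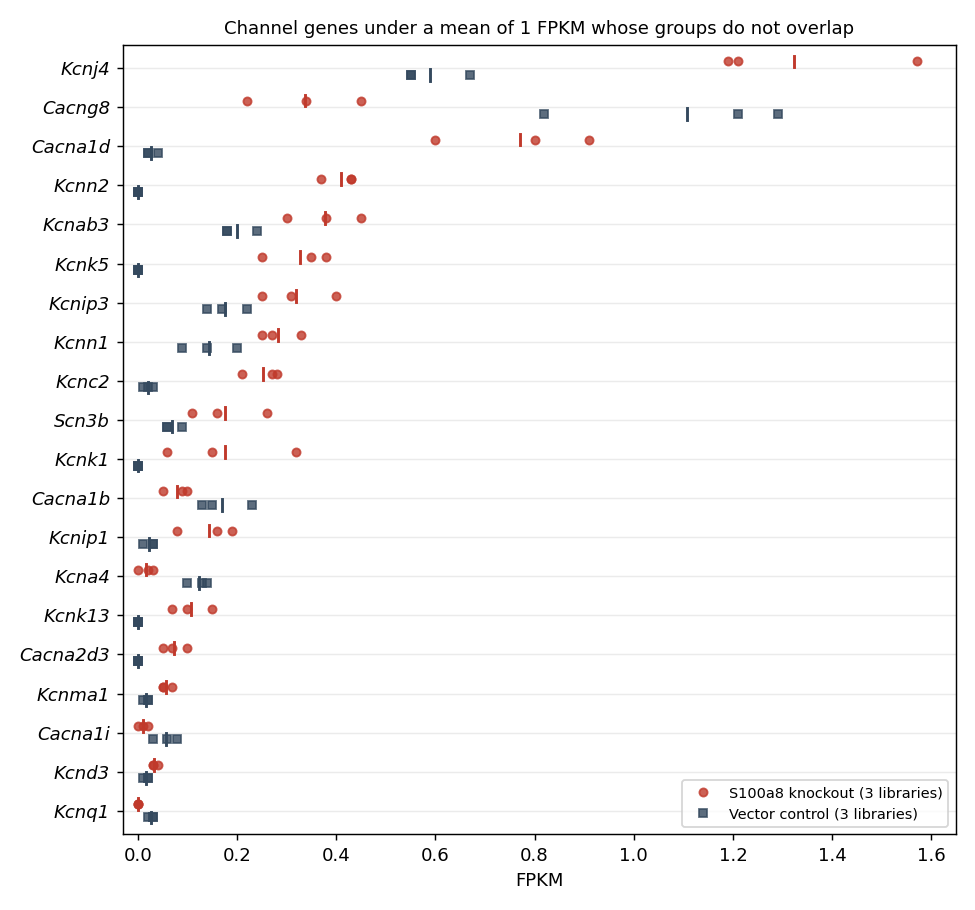
FPKM on a linear axis of the 20 channel genes under a mean of 1 FPKM whose groups did not overlap, one row per gene, with points for the S100a8 knockout (red circles) and Vector control libraries (dark squares) and bars at the group means. Kcnj4, Cacna1d and Kcnn2 lie higher and Cacng8 lower in knockout libraries, and most other genes stay below 0.5 FPKM.

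Genes that work with these channels were taken from 6 lists of partners and other ion transport genes, of which 103 of 112 were in the table and 42 were tested. Of the 42, 24 passed (57.1%, against 50.2% of all tested genes), 11 higher and 13 lower in the knockout. All 3 tested partners outside the symbol rule passed, with a median difference of 0.78. Fgf13, an intracellular FGF-like protein that binds sodium channel pores, was read at 4.05 ± 0.165 FPKM in knockout and 0.0533 ± 0.0115 FPKM in control libraries (SD, n = 3 each) and rose by 2.26 (adjusted p = 1.19e-07), Ank2 (ankyrin-B) rose by 0.78 and Ank3 (ankyrin-G) fell by 0.43. Of the small GTPases that inhibit voltage-gated calcium channels, Gem fell by 1.84 (0.617 ± 0.284 FPKM in knockout and 4.73 ± 0.129 FPKM in control libraries, SD, n = 3 each) and Rrad rose by 0.39. Fgf13 passed the filter on low values through the knockout libraries alone, and Gem through the control libraries alone.

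The sodium-potassium pump, which builds the gradients that the channels use, had 1 rise, 1 fall and 2 that did not pass among 4 tested genes, and a median of 0.06. Its beta subunit Atp1b1 rose by 0.30. Among genes of calcium release, entry and extrusion, 3 of 12 rose, 5 fell and 4 missed the threshold (median -0.10). The release channel Itpr3 fell by 0.77 and the store calcium sensor Stim1 fell by 0.77, whereas Itpr1 rose by 0.55. Of the chloride and volume-regulated channels, 2 of 14 rose, 3 fell and 9 missed the threshold (median 0.02), and Lrrc8d fell by 0.59. Of the TRP, Piezo and HCN channels, 2 of 7 rose, 2 fell and 3 missed the threshold (median 0.01). Trpv2, which passed the filter through the knockout libraries alone, rose by 1.93 (5.98 ± 0.325 FPKM in knockout and 0.83 ± 0.105 FPKM in control libraries, SD, n = 3 each), the stretch-gated Piezo1 rose by 0.57 and Trpc1, which passed it through the control libraries alone (0.683 ± 0.095 FPKM in knockout and 1.38 ± 0.225 FPKM in control libraries, SD, n = 3 each), fell by 0.49.

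**Figure D4:**
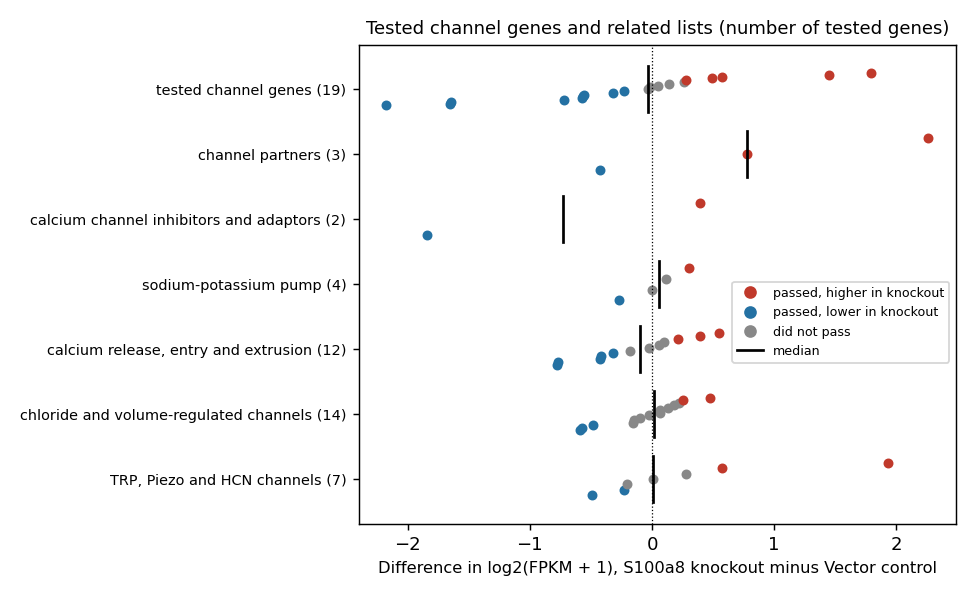
Difference in log2(FPKM + 1), S100a8 knockout minus Vector control, of each tested gene in the channel set and the 6 related lists, coloured by call, with a black bar at each median and the number of tested genes in brackets. The medians of the larger lists lie between -0.10 and 0.02, while Fgf13 (2.26), Trpv2 (1.93) and Gem (-1.84) stand furthest from 0 among the related genes.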

How the data were processed

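RNA came from a TRIZOL extraction and libraries from a DNBSEQ preparation, per the labels. By the study's methods, reads with adapter, poly-N or low-quality bases were discarded and expression was computed with RSEM (spelled RESM there). HISAT2 2.0.4 and Bowtie2 2.2.5 are named in the submitters' processing notes, with mm10 as the build. The authors deposited FPKM to 2 decimals for 18051 genes, of which 598 were 0 in all 6 libraries. The annotation, strand use and filters are not given in the sources used here. The smallest value above 0 was 0.01 in each library, the rounding step itself, so depth is unknown and single reads could not be recovered. The authors' group means were not used.

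Values were converted to log2(FPKM + 1), a scale that understates changes of low genes. The 11112 genes with a mean of at least 1 FPKM were tested with limma 3.58.1 in R 4.3.3 (empirical Bayes with a mean-variance trend, no covariate, Benjamini-Hochberg adjustment over all tested genes, threshold 0.05). The procedure was tested on simulated data. S100a8 was also compared by an exact permutation test. Members were found by symbol, with 2 symbols left out, and chromosomes came from RefSeq (GRCm38.p6) by gene ID, which matched 118 of 118. Exons of Kcnab1, Kcnab2, Kcnj15, Kcnk2, Kcnmb4, Kcnq5, Cacna1a, Cacnb1 and Cacnb2, and of the low members Cacna1d, Cacng8 and Kcnn2, overlap another GENCODE M21 gene, for all but Kcnab2 and Cacng8 an antisense one, and without strand such reads cannot be told apart.

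The members and lists were chosen with earlier results of these data known. All tested members were named but 1, which is not reported here and is left out of the plots that name genes, though counts and sums include it. Single libraries are given for the 12 largest differences that passed and the 3 highest means, and were added for others after their values were seen. Members under the filter were named where a group mean reached 1 FPKM, or 0.5 FPKM without overlap, and others after their values were seen. Up to 3 genes that passed were named per related list. Alternatives were pseudocounts of 0.1 and 0.5, no filter, a mean of at least 5 FPKM, quantile normalization, rescaling to a common sum (TPM) or by median of ratios, no trend, each library left out, and a replicate block. Centring by chromosome was chosen after seeing the data.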

Additional observations from a re-analysis of the deposited data

How the results depend on the processing

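Of 290 values of the 19 tested members under 16 alternatives, 266 kept their side of the threshold and 6 newly passed. Another 16 no longer passed but kept their sign, and 2 (Cacng7 and Kcnd1, on centring by chromosome) changed sign and no longer passed. Sign changes of values near 0 that passed in neither setting are counted among the 266. Of the 14 members that passed, 11 kept the call under every alternative that tested them, and the exceptions were Cacna2d1, Cacng7 and Kcnd1. On centring by chromosome, added after the data were seen, Cacng7 was at 0.0111 and Kcnd1 at 0.0288. Centring removes the median shift of each chromosome by construction, and the part of that shift in either gene was not tested. Calls of Cacna2d1 and Cacng7 were also lost with a common sum (adjusted p 0.115 and 0.1), that of Cacna2d1 with no filter (0.0538), and those of Cacng7 and Kcnd1 with quantile normalization (0.0677 and 0.0849); the cause was not tested. Cacnb2 passed with median-of-ratios scaling (0.0457), quantile normalization (0.00716), no trend (0.0467) and centring (0.00556). The number of members that passed was 14 (5 rose and 9 fell), against 27 with no filter (16 rose and 11 fell of 107 tested, beside 37.4% of all genes), 4 with a mean of at least 5 FPKM (2 rose and 2 fell of 5 tested, beside 48.9% of all genes), and 11 to 16 when a library was left out. The related lists gave 24, against 13 with a mean of at least 5 FPKM, 36 with no filter and 18 with a common sum. Over all genes 5580 passed, and 4283 to 7391 did with a library left out. With the replicate block 14 members, 23 related genes and 5527 genes passed. Same-numbered libraries had deviations that correlated at 0.327, 0.104 and -0.214, and differently numbered ones at -0.358 to 0.284. With 3 libraries per group these values cannot tell whether same-numbered libraries shared a culture or day. A pseudocount of 0.1, which by construction widens differences of low values, gave -2.65 for Kcnn4, -2.71 for Kcnj15, -2.64 for Kcnab1, -1.37 for Kcnj2, -0.93 for Kcnab2, -0.89 for Kcnmb4 and -4.89 for S100a8. The fall of S100a8 passed under each alternative that tested it. Depth is unknown, so no limit from counting can be set.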
